A study of Mus musculus with 2 samples.

Results

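The TNF superfamily of ligands and the TNF receptor superfamily were examined in mouse bone marrow-derived macrophages. Members were the genes whose symbols begin with Tnfsf or Tnfrsf, together with Tnf, Lta, Ltb, Ltbr, Fas, Fasl, Cd27, Cd40, Cd70 and Ngfr. Both deposited tables held 41 of them among 16263 genes, 16 ligands and 25 receptors. Cd40lg, which the same rule names where present, was not listed under that symbol among the 16263 genes. The libraries came from mice labelled SIRPα-/- (SIRPα-KO below) and from wild-type (WT) mice, both given as C57BL/6. SIRPα, found on macrophages and other myeloid cells, passes inhibitory signals when it meets CD47. Marrow cells were grown for 5 days with M-CSF and then exposed for 6 h to interferon-γ (20 ng/ml) and LPS (100 ng/ml) with the reagent mCD47.ex, so the stimuli and the reagent were common to both groups. RNA was taken from the mixed cells of 5 mice of each genotype, which leaves 1 library per genotype and no replicate error. The labels do not describe the targeted allele.

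TNF superfamily ligands are mostly trimeric proteins that are made at the cell surface and can be shed. Their receptors carry cysteine-rich domains outside the cell. Some receptors hold a cytoplasmic death domain that recruits TRADD or FADD, others bind TRAF adaptors, and decoys bind a ligand without signalling. In macrophages stimulated with LPS, TNF is among the main secreted cytokines. TNF acts through TNFR1 (Tnfrsf1a), which has a death domain, and through TNFR2 (Tnfrsf1b), which binds TRAF2 and responds best to membrane-bound TNF. CD40, which T cells engage on antigen-presenting cells, activates both arms of NF-κB signalling.

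Levels are given as FPKM (fragment counts divided by transcript length and library size), a unit inferred from the deposited values. Sirpa was at 71.5 FPKM in the library labelled SIRPα-KO and 153.9 FPKM in WT, so its transcript was lower and still present. Xist was at 0.91 FPKM in SIRPα-KO, against 47.5 in WT, and the Y-linked gene Eif2s3y at 21.4 FPKM in SIRPα-KO but listed at 0 in WT, so the effects of genotype and of sex cannot be told apart. Depth, estimated from the step between low values, was about 10950000 reads in each library.

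The members lower in SIRPα-KO macrophages by the 2-fold limit given below were TNFR2 (Tnfrsf1b), the CD30 receptor (Tnfrsf8) and the CD30 ligand (Tnfsf8). Tnf itself, its other receptor TNFR1, Cd40 and Fas were abundant and lay close to equality between the libraries. Ratios are differences of log2(FPKM + 1), SIRPα-KO over WT, which makes differences between low values look smaller. A gene was kept if either library reached 1 FPKM, and called at a difference of at least 2-fold on that scale. Of the 41 members 23 were kept, and of these 0 were called higher, 3 lower and 20 neither. Over all 10092 kept genes 7.74% were called in either direction, 3.43% higher and 4.31% lower. The members called make 13.0% of those kept, a small count without replicates that describes these 2 libraries. With a pseudocount of 0.1 the members called were 5 lower and 0 higher, beside 6.71% lower and 5.84% higher (12.5% in all) among kept genes. With a limit of 1.5-fold they were 8 lower and 1 higher, beside 10.2% lower and 10.9% higher (21.2% in all). Tnfrsf8, called in each case, and Tnfrsf26, added by both alternatives, passed the filter through the WT library alone, which favours a lower call.

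Upstream sequences of the called members are shown with those of Tnfsf15, the neighbour of Tnfsf8 on its chromosome, and of Tnf, the most abundant ligand. Each line gives the 250 bases before the RefSeq start (GRCm38.p6, minus strand for all 5 genes), written 5′ to 3′ in the direction of the gene. This build is later than the mm9 named in the submitters' processing notes, and no value of the tables was joined to it by position. The windows are chr4:145246871-145247120 for Tnfrsf1b, chr4:145315165-145315414 for Tnfrsf8, chr4:63861285-63861534 for Tnfsf8, chr4:63745060-63745309 for Tnfsf15 and chr17:35202008-35202257 for Tnf. Capitals mark matches to a κB-like pattern (GGG, then any 5 bases, then CC) on either strand, where overlapping matches run together.
Tnfrsf1b: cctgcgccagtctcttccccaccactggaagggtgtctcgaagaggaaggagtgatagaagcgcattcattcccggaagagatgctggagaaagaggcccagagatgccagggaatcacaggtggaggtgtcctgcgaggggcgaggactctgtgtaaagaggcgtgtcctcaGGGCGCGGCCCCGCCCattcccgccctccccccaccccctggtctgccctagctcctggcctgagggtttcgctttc
Tnfrsf8: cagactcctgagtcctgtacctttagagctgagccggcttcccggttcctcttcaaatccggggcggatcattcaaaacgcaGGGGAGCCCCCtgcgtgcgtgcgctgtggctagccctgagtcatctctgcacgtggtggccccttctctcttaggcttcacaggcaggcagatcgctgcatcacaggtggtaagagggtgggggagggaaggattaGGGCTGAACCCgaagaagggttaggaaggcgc
Tnfsf8: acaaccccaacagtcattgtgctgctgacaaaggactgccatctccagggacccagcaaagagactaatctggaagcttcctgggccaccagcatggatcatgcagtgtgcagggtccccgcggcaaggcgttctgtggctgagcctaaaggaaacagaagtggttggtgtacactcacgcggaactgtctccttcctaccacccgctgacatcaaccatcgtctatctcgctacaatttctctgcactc
Tnfsf15: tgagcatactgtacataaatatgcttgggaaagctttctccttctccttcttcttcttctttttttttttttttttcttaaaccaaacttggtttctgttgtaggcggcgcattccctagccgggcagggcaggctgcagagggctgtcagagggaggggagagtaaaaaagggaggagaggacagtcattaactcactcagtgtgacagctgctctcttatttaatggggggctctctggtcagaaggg
Tnf: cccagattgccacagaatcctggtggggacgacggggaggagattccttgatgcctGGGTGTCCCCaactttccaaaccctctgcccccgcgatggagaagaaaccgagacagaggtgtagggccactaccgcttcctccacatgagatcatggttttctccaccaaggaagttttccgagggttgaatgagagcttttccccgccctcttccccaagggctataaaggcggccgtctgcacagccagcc
The Tnf window held 1 match, GGGTGTCCCC, and a TATAAA box near the start. The Tnfrsf1b window held 3 overlapping matches within a GC-rich stretch, and the Tnfrsf8 window held 4 in 2 overlapping pairs. The windows of Tnfsf8 and Tnfsf15 held 0 matches. A promoter window was found for 32 of the 41 members, with 36 windows in all. Cd40, Tnfsf9, Tnfsf4, Tnfsf12, Cd70, Tnfrsf10b, Tnfrsf22, Tnfrsf26 and Tnfrsf11b had no window and were not searched. The pattern occurred in 23 of these 36 windows (63.9%) and in 45.8% of 32851 promoter windows of the same length. The interferon-γ activation pattern TTCNNNGAA, searched in the same way, occurred in 8 member windows (22.2%) and in 7.02% of all windows. Among the genes printed here it occurred in Tnfrsf1b, as TTCCCGGAA starting 181 bases before the start, clear of the κB-like matches. Of the other members kept by the filter, Tnfrsf1a, Fas and Lta also held it, and they were not called. TATAAA occurred in 6 member windows (16.7%) and in 12.4% of all windows. A match is a string of letters and does not show a site in use.

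Tnf (gene number 21926, chromosome 17) was the most abundant ligand, at 696 FPKM in the SIRPα-KO library and 601 FPKM in the WT library, a log2 ratio of 0.21. It made up 85.4% of the summed FPKM of the 16 ligands in SIRPα-KO and 79.2% in WT. The difference between the libraries was short of 2-fold. Tnfsf10, the gene for TRAIL, which triggers apoptosis through death receptors, was second, at 51.8 FPKM in SIRPα-KO, against 88.8 FPKM in WT (log2 ratio -0.77). It was lower in SIRPα-KO by 1.72-fold without a pseudocount, and was not called.

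Tnfsf8 encodes the CD30 ligand, a membrane protein of activated lymphocytes and myeloid cells. Its level was 1.33 FPKM in SIRPα-KO macrophages and 10.9 FPKM in WT macrophages, a log2 ratio of -2.35. Without the pseudocount the WT value was 8.2 times the SIRPα-KO value. By the estimated depth these levels stand for about 55 reads in SIRPα-KO and 455 in WT. Tnfsf8 had the most negative ratio of the 23 kept members.

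The other kept ligands were not called. Tnfsf15 (TL1A, a costimulator of T cells through DR3) was at 30.0 FPKM in SIRPα-KO, against 20.3 FPKM in WT, the highest ratio among the ligands at 0.54. Tnfsf4 (the OX40 ligand, another costimulator) was at 5.95 FPKM in SIRPα-KO, against 4.0 in WT. Tnfsf9, the ligand of CD137, was almost the same in both libraries, at 18.9 FPKM in SIRPα-KO, against 19.0 in WT, though an antisense gene, Gm11110, covers 14.9% of its exons and the strand setting is unknown. Lta, the gene for lymphotoxin α, was at 2.10 FPKM in SIRPα-KO, against 1.83 in WT.

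Tnfsf12 (TWEAK) was at 3.12 FPKM in SIRPα-KO, against 6.83 in WT, a log2 ratio of -0.93, just short of the call. Its neighbour Tnfsf13 (APRIL, which supports B cells) was at 3.09 FPKM in SIRPα-KO, against 3.87 in WT. Both values are uncertain, because 46.8% of the 50-base words of Tnfsf12 and 57.3% of those of Tnfsf13 also occur in Tnfsfm13, an annotated transcript that joins the pair. The median log2 ratio of the 9 kept ligands was -0.01, beside 0.06 over all kept genes, with 0 higher, 1 lower and 8 neither. The plot of member levels shows the ligands in its upper block.

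**Figure D1:**
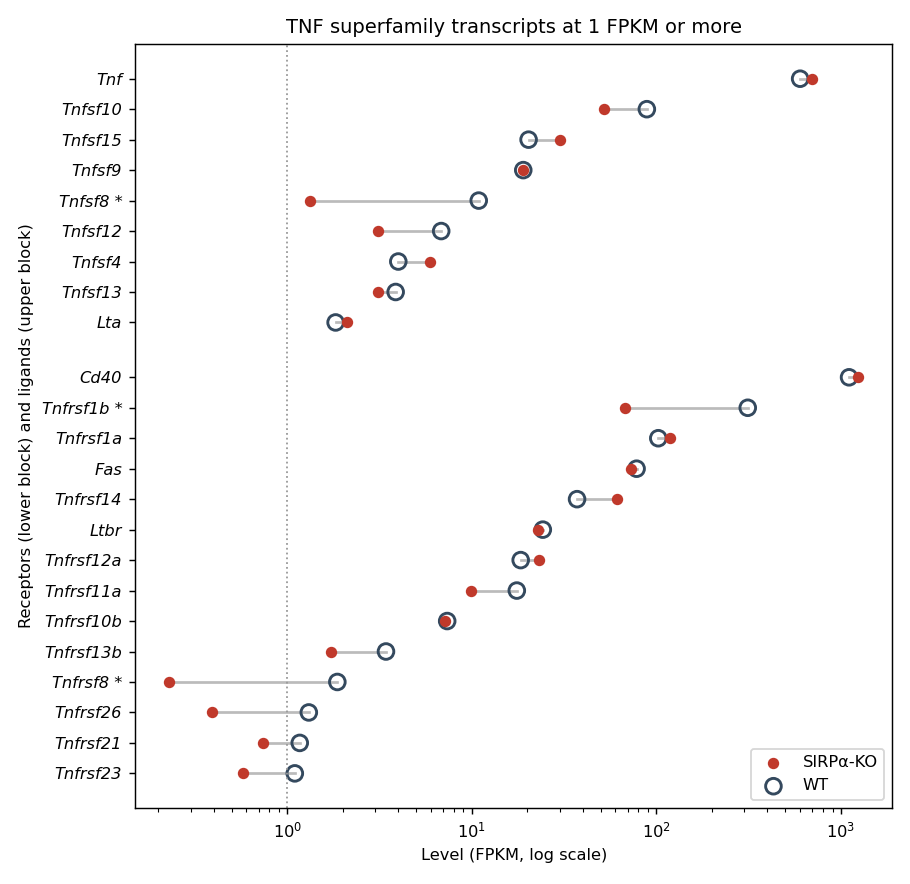
Levels of the 23 members that reached 1 FPKM in either library, on a log scale, with ligands in the upper block and receptors in the lower one. Filled points are the SIRPα-KO library, open circles the WT library, the dotted line marks 1 FPKM, and asterisks mark the 3 genes called, Tnfsf8, Tnfrsf1b and Tnfrsf8, each lower in SIRPα-KO.

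Among the receptors, Cd40 was the most abundant, at 1237 FPKM in SIRPα-KO, against 1106 FPKM in WT (log2 ratio 0.16). It made up 76.0% of the summed receptor FPKM in SIRPα-KO, against 64.5% in WT. Its rank among all genes of the tables was 36 in SIRPα-KO and 47 in WT. Cd40 was thus the leading receptor transcript of both libraries, at nearly equal levels.

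Tnfrsf1b (gene number 21938, chromosome 4) was at 67.3 FPKM in the SIRPα-KO library and 312.7 FPKM in the WT library, a log2 ratio of -2.20. The WT value was 4.65 times the SIRPα-KO value without a pseudocount. These levels correspond to about 2812 reads in SIRPα-KO and 13073 in WT, so counting error is small beside the difference, while the variation between mice is unknown. Tnfrsf1b ranked 1084th among all genes in SIRPα-KO and 239th in WT.

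Tnfrsf1a, the other TNF receptor, was at 118 FPKM in SIRPα-KO, against 102 FPKM in WT (log2 ratio 0.21). The order of these receptors was therefore opposite in the libraries. The level of Tnfrsf1b was 0.568 times that of Tnfrsf1a in SIRPα-KO and 3.05 times in WT, on a scale that is per length of transcript. For Tnfrsf1a, Tnfrsf1b, Tnfrsf8 and Tnfsf8, 0% of the 50-base words occurred in another annotated gene, and no annotated gene overlapped their exons.

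Tnfrsf8 encodes CD30, the receptor of the ligand made from Tnfsf8. It was at 0.23 FPKM in SIRPα-KO, against 1.87 FPKM in WT, a log2 ratio of -1.22. That is about 9 reads in SIRPα-KO and 70 reads in WT, a shallow basis for the size of the difference. The WT value was 8.13 times the SIRPα-KO value without a pseudocount, close to the 8.2 of its ligand. Tnfrsf8 reached 1 FPKM in the WT library alone, so a member kept in this way had to differ.

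The other kept receptors that bind TRAF adaptors were not called. Tnfrsf14 (HVEM, the receptor of LIGHT and a partner of BTLA) had the highest ratio among all members, 0.71, at 61.3 FPKM in SIRPα-KO, against 37.2 in WT. Tnfrsf12a (Fn14, the TWEAK receptor) was at 23.2 FPKM in SIRPα-KO, against 18.4 in WT. The receptor thus had a positive ratio, 0.32, beside the negative ratio of its ligand Tnfsf12. Ltbr, the lymphotoxin β receptor, was nearly equal, at 23.0 FPKM in SIRPα-KO, against 24.3 in WT.

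Tnfrsf11a encodes RANK, the receptor that drives osteoclast formation, and was at 9.87 FPKM in SIRPα-KO, against 17.5 in WT (log2 ratio -0.77). Its ligand Tnfsf11 was at 0.04 FPKM in SIRPα-KO but listed at 0 in WT. Among 7 osteoclast markers, 5 were kept, each with a negative ratio and 0 called, with a summed level of 44.8 FPKM in SIRPα-KO, against 66.3 in WT. Atp6v0d2, the most abundant of them, was at 19.5 FPKM in SIRPα-KO, against 32.5 in WT. The part of osteoclast-like cells in the Tnfrsf11a value was not tested. In bulk RNA, fewer cells of a type and less RNA per cell cannot be told apart.

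Tnfrsf13b (TACI, a receptor of B cells for BAFF and APRIL) was at 1.73 FPKM in SIRPα-KO, against 3.43 in WT (log2 ratio -0.70), about 14 reads in SIRPα-KO and 28 in WT. Of 8 B cell markers 4 were kept and 0 called, and 3 of the 4 had a negative ratio, like Tnfrsf13b, with a median log2 ratio of -0.58 over the 4. Cd79b was at 0.96 FPKM in SIRPα-KO, against 2.41 in WT, and Cd79a at 0.62 FPKM in SIRPα-KO, against 1.69 in WT, both chains of the B cell receptor. Ms4a1 (CD20) was at 0.52 FPKM in SIRPα-KO, against 1.04 in WT. The exception was Cd22, the most abundant, at 9.65 FPKM in SIRPα-KO, against 8.47 in WT. The summed level of the list was 12.3 FPKM in SIRPα-KO, against 14.9 in WT, and without Cd22 it was 2.7 FPKM in SIRPα-KO, against 6.4 in WT. The part of B cells in the Tnfrsf13b value was not tested.

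Of the receptors with a death domain, Tnfrsf1a, Fas and Tnfrsf10b lay close to equality. Fas was at 73.1 FPKM in SIRPα-KO, against 78.2 in WT, and Tnfrsf10b, the mouse TRAIL receptor, at 7.17 FPKM in SIRPα-KO, against 7.36 in WT. Their log2 ratios were -0.09 and -0.03. Tnfrsf21 (DR6), at the edge of the filter, was at 0.74 FPKM in SIRPα-KO, against 1.17 in WT (log2 ratio -0.32). Without a pseudocount that is lower in SIRPα-KO by 1.58-fold. The 4 kept members of this group had a median log2 ratio of -0.06, with 0 called.

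Tnfrsf23, a mouse decoy receptor for TRAIL without a death domain, was at 0.58 FPKM in SIRPα-KO, against 1.10 in WT. Tnfrsf26, a receptor without an assigned ligand, was at 0.39 FPKM in SIRPα-KO, against 1.31 in WT, a log2 ratio of -0.73. Without the pseudocount Tnfrsf26 differed by 3.36-fold, from about 13 reads in SIRPα-KO and 45 in WT. Tnfrsf22 and Tnfrsf23 share sequence, 17.3% of the 50-base words of Tnfrsf22, so reads between them may have been split. Exons of Tnfrsf23 and Tnfrsf26 also overlap an antisense gene, E230032D23Rik, and the use of strand in counting is not given in the sources used here. Over the 14 kept receptors the median log2 ratio was -0.21, beside 0.06 over all kept genes, with 0 higher, 2 lower and 12 neither. Tnfrsf8, Tnfrsf21, Tnfrsf23 and Tnfrsf26 passed the filter through the WT library alone, and with no filter the median over all 25 receptors was -0.04.

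The remaining 18 members were below 1 FPKM in both libraries. They were the ligands Ltb, Tnfsf13b, Tnfsf14, Tnfsf18, Fasl, Cd70 and Tnfsf11, at 0.04 to 0.82 FPKM in SIRPα-KO, against 0 to 0.96 in WT. The receptors were Tnfrsf13c, Tnfrsf4, Tnfrsf18, Cd27, Tnfrsf9, Tnfrsf17, Tnfrsf19, Tnfrsf25, Ngfr, Tnfrsf22 and Tnfrsf11b, at 0 to 0.91 FPKM in SIRPα-KO, against 0 to 0.97 in WT. Many of these are genes of lymphocytes or stromal cells. A gene below 1 FPKM in both libraries cannot differ by 2-fold on the scale with a pseudocount of 1, so none of them could be called. By the estimated depth they stand for 0 to 19 reads in SIRPα-KO, against 0 to 30 in WT. Tnfsf13b (BAFF), a long transcript, had the most reads in WT, about 11 in SIRPα-KO, against 30 in WT, at 0.21 FPKM in SIRPα-KO, against 0.57 in WT. Without the pseudocount its WT value was 2.71 times the SIRPα-KO value. Tnfrsf17 was listed at 0 in both libraries, and Fasl, Cd70, Tnfsf11 and Tnfrsf19 were listed at 0 in WT and at 0.04 to 0.24 FPKM in SIRPα-KO.

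**Figure D2:**
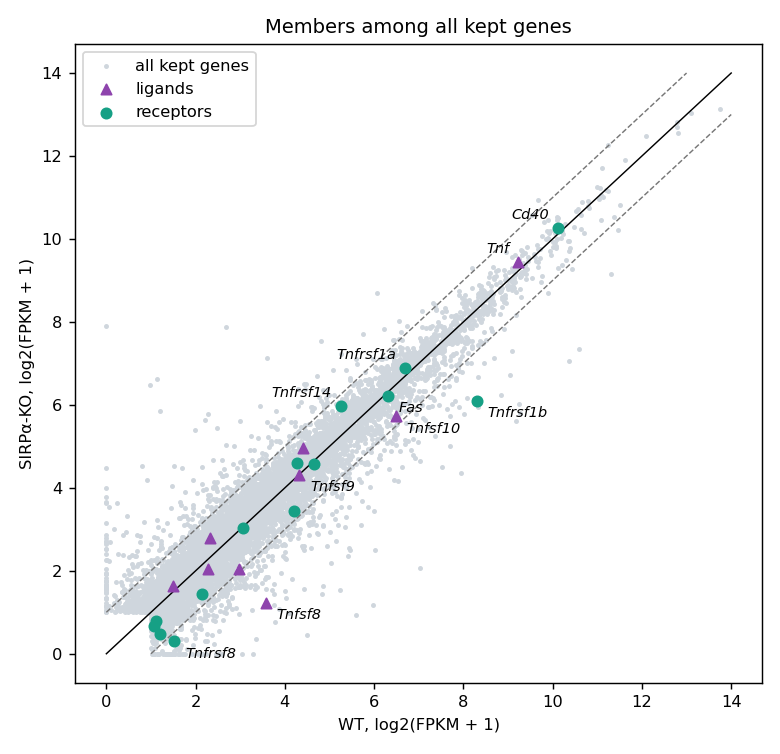
The SIRPα-KO library (vertical axis) against the WT library (horizontal axis), both as log2(FPKM + 1), for all 10092 kept genes in grey, the 9 kept ligands as triangles and the 14 kept receptors as circles. The solid line is equality and the dashed lines mark 2-fold. Tnfrsf1b and Tnfsf8 lie well below the lower dashed line, and Tnf and Cd40 lie on the line of equality at the abundant end.

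Ligands and receptors were then set side by side for 26 known pairs. In 9 pairs both partners were kept, in 6 only the ligand, in 6 only the receptor and in 5 neither. CD30 and its ligand were the pair in which both partners were called, though Tnfrsf8 (CD30) passed the filter through the WT library alone. For TNF the ligand and Tnfrsf1a had the same ratio, 0.21, while Tnfrsf1b had -2.20. For TRAIL the ligand had -0.77 and the receptor Tnfrsf10b -0.03. Tnfsf9, Tnfsf15 and Tnfsf4 were kept, whereas their receptors on T cells, Tnfrsf9, Tnfrsf25 and Tnfrsf4, did not exceed 0.55 FPKM in either library. The reverse held for Fas, Ltbr, Tnfrsf14 and Tnfrsf11a, which were kept while Fasl, Ltb, Tnfsf14 and Tnfsf11 were not.

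Members lie next to each other at several places of the genome, which the choice of members did not use. On GRCm38.p6, 23 of the 41 members fell into 9 clusters, joined where at most 5 protein-coding genes lay between neighbours. All 3 called members were on chromosome 4, where 5 of 9 members were kept. Of all 629 kept genes of chromosome 4, 5.09% were called lower, against 4.31% over all chromosomes. Tnfrsf1b and Tnfrsf8 are adjacent there, with 0 protein-coding genes between them, and both were lower in SIRPα-KO. Of the pair, Tnfrsf8 passed the filter through the WT library alone. Their next neighbours outward with a kept value were not called: Dhrs3 had a ratio of -0.19, Vps13d -0.06 and Gm13212 -0.91.

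Tnfsf8 and Tnfsf15 form another adjacent pair on chromosome 4, and their ratios had opposite signs, -2.35 and 0.54. The lymphotoxin and TNF genes lie together on chromosome 17, where Ltb was at 0.81 FPKM in SIRPα-KO, against 0.96 in WT beside the abundant Tnf. Their ratios were all small, -0.11 for Ltb, 0.21 for Tnf and 0.13 for Lta. On chromosome 6, Cd27, Ltbr and Tnfrsf1a had ratios of 0.16, -0.08 and 0.21. Adjacent members thus differed widely in level, and the pair of Tnfrsf1b and Tnfrsf8 was the cluster with more than 1 called member. That count rests on Tnfrsf8, which was kept through the WT library alone and which a minimum of 5 FPKM removed.

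**Figure D3:**
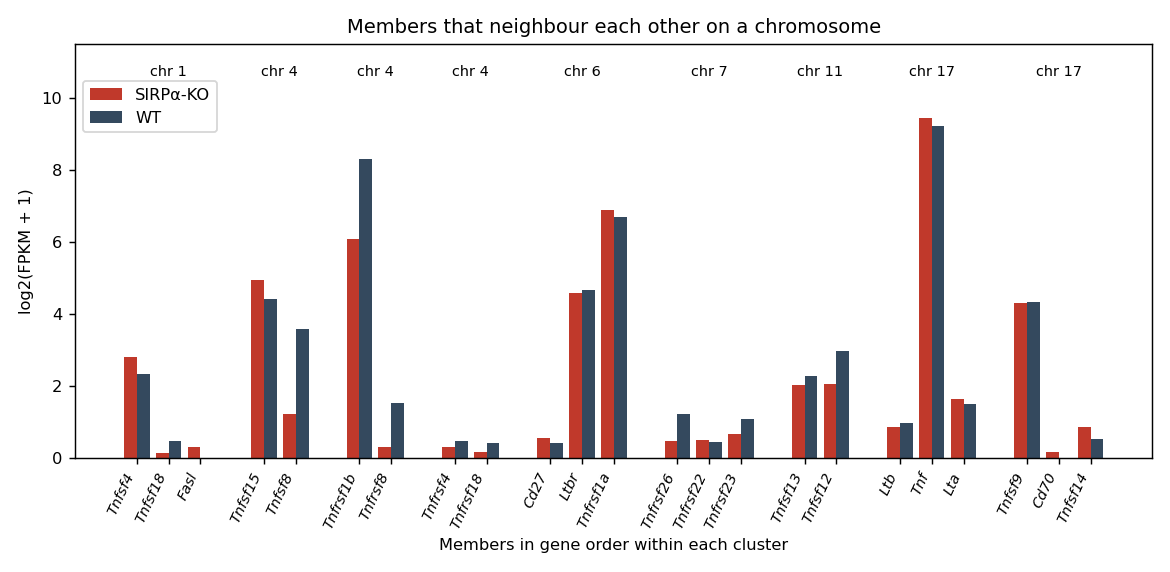
Levels as log2(FPKM + 1) of the 23 members that neighbour each other, in gene order within each of 9 clusters, with the SIRPα-KO bar left of the WT bar. The clusters of chromosome 4 hold the 3 called members, and Tnfsf15, at 30.0 FPKM in SIRPα-KO, against 20.3 in WT, stands beside Tnfsf8, at 1.33 FPKM in SIRPα-KO, against 10.9 in WT.

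The genes that carry the signal from these receptors were taken from lists chosen with earlier results of these data known. The lists held 68 distinct genes, and 62 were kept. Of these 3 were called higher, Birc2, Tnip3 and Zfp36l1, and 2 lower, Traf3 and Zfp36, together 8.06%, near the 7.74% of all kept genes. In the receptor-proximal complex 20 of 20 genes were kept, with 1 higher, 1 lower and a median log2 ratio of 0.04. Traf3, an adaptor that holds the noncanonical kinase NIK at low levels, was at 3.89 FPKM in SIRPα-KO, against 15.3 in WT, a log2 ratio of -1.74. Birc2 (cIAP1), the ubiquitin ligase of the same complex, was at 37.2 FPKM in SIRPα-KO, against 16.2 in WT, a log2 ratio of 1.15.

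The noncanonical NF-κB list holds both of these genes. Its 8 members were all kept, with 1 higher, 1 lower and 6 neither, and its median log2 ratio was 0.49. Ratios were positive for 7 of the 8 genes, beside 56.1% of all 10092 kept genes, whose median was 0.06. Nfkb2 (the p100 precursor) was at 230 FPKM in SIRPα-KO, against 150 in WT, and its partner Relb at 50.1 FPKM in SIRPα-KO, against 29.7 in WT. Birc3 (cIAP2) was at 147 FPKM in SIRPα-KO, against 88.8 in WT. Nfkb2, Relb and Birc3 were not called and were named after their values were seen.

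Among deubiquitinases and inhibitors, 12 of 12 genes were kept, with 1 higher, 0 lower and a median of 0.08. Tnip3, an A20-binding inhibitor of NF-κB, was at 308 FPKM in SIRPα-KO, against 133 in WT (log2 ratio 1.21). Nfkbia (IκBα) was at 267 FPKM in SIRPα-KO, against 266 in WT, and Tnfaip3 (A20 itself) at 225 in SIRPα-KO and 259 in WT. Genes of the death receptor and necroptosis arm had 12 of 13 kept, 0 called and a median of 0.09. Cflar, an inhibitor of caspase-8, was at 278 FPKM in SIRPα-KO, against 236 in WT, and Mlkl, the effector of necroptosis, at 153 in SIRPα-KO and 117 in WT.

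Genes that govern decay of the Tnf messenger and release of the protein had 15 of 16 kept, with 1 higher, 1 lower and a median of 0.0. Zfp36 (tristetraprolin), which binds AU-rich elements of Tnf mRNA and promotes its decay, was at 75.8 FPKM in SIRPα-KO, against 186 in WT, a log2 ratio of -1.28. Its relative Zfp36l1 was at 22.6 FPKM in SIRPα-KO, against 9.0 in WT, a log2 ratio of 1.24. Adam17, the protease that sheds TNF and TNFR2, was at 73.8 FPKM in SIRPα-KO, against 91.3 in WT, and was named after its value was seen. The superfamily genes with other names, Eda, Edar, Eda2r and Relt, were all below 1 FPKM.

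**Figure D4:**
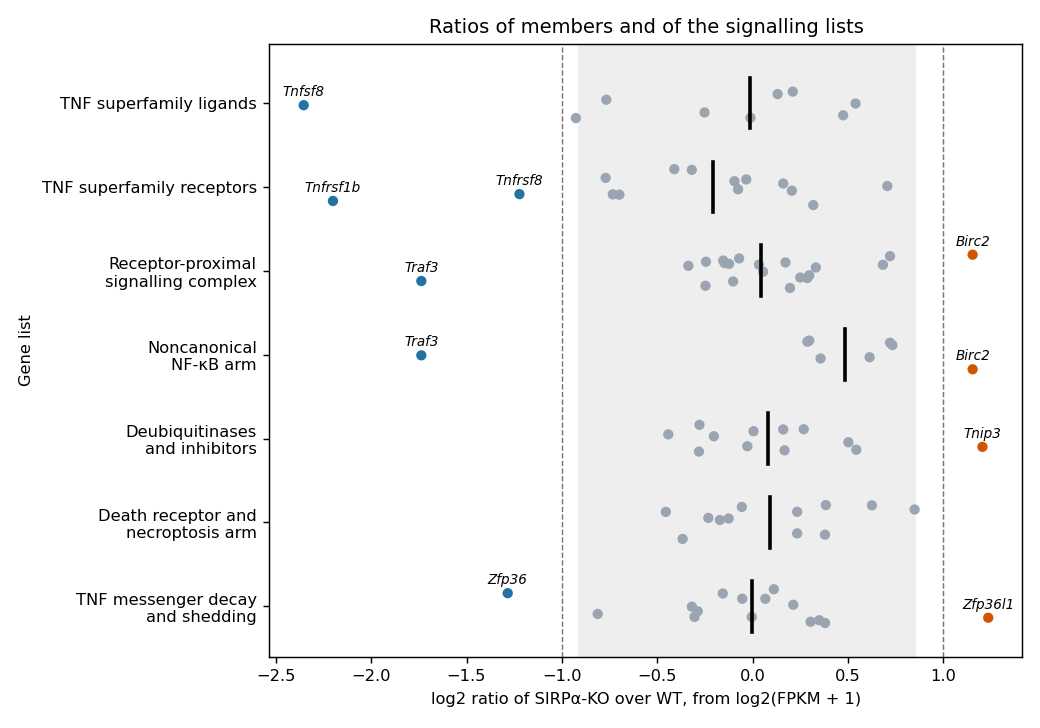
Log2 ratios of SIRPα-KO over WT for the kept genes of each list, with a point per gene and a black bar at the median of the list. Orange points are called higher, blue points lower, dashed lines mark 2-fold, and the grey band runs from the 5th to the 95th percentile of all kept genes, -0.91 to 0.85. The called members Tnfsf8, Tnfrsf1b and Tnfrsf8 lie left of the band.

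Markers of the labelled cell type and of others were set beside these results. Macrophage markers were abundant in both libraries, with 9 of 9 kept and 1 called. Lyz2 was at 7208 FPKM in SIRPα-KO, against 7106 in WT, and Csf1r, the receptor for M-CSF, was the called marker, at 110 FPKM in SIRPα-KO, against 248 in WT. Of 9 neutrophil markers 5 were called lower and 0 higher, beside 4.31% lower and 3.43% higher among all kept genes. Their summed level was 197.9 FPKM in SIRPα-KO, against 427.6 in WT. The largest share of that sum was S100a9, at 98.1 FPKM in SIRPα-KO, against 202 in WT. Ngp was at 24.7 FPKM in SIRPα-KO, against 68.8 in WT, Camp at 1.41 FPKM in SIRPα-KO, against 5.59 in WT, and Elane, a protease of granulocyte precursors, at 0.50 FPKM in SIRPα-KO, against 3.36 in WT. Mpo had the positive ratio of these 9 markers, at 3.34 FPKM in SIRPα-KO, against 2.38 in WT, and was not called. Of 10 dendritic cell markers 7 were kept, with 3 called higher and 1 lower, beside 3.43% higher and 4.31% lower among all kept genes. The median log2 ratio of the 7 was -0.01, and 4 were negative. The summed level of the list was 188.2 FPKM in SIRPα-KO, against 57.6 in WT, most of the SIRPα-KO sum being Ccl22. Without Ccl22 it was 49.1 FPKM in SIRPα-KO, against 46.4 in WT. Siglech was at 1.11 FPKM in SIRPα-KO, against 3.03 in WT (log2 ratio -0.93), and was not called. Ccl22 was at 139 FPKM in SIRPα-KO, against 11.2 in WT, Ccr7 at 23.8 FPKM in SIRPα-KO, against 6.93 in WT, Dpp4 at 4.95 FPKM in SIRPα-KO, against 1.32 in WT, and Itgax at 12.1 FPKM in SIRPα-KO, against 27.7 in WT. Of the markers of conventional dendritic cells, Clec9a was at 3.34 FPKM in SIRPα-KO, against 3.36 in WT, and Xcr1 at 2.99 FPKM in SIRPα-KO, against 3.3 in WT, while Flt3 and Zbtb46 were below 1 FPKM in both libraries. T and NK cell markers had 4 of 10 kept, 0 called and a summed level of 31.9 FPKM in SIRPα-KO, against 29.2 in WT. Of the kept ones, Lck was at 16.7 FPKM in SIRPα-KO, against 12.8 in WT, Cd3d at 6.79 FPKM in SIRPα-KO, against 6.29 in WT, Cd8a at 2.78 FPKM in SIRPα-KO, against 2.12 in WT, and Cd4, which had the negative ratio of these 4, at 4.96 FPKM in SIRPα-KO, against 7.88 in WT. The other chains of the CD3 complex were at or near 0, with Cd3g listed at 0 in both libraries and Cd3e at 0.06 FPKM in SIRPα-KO but listed at 0 in WT. Mast cell and basophil markers had 3 of 5 kept, 0 called, a median log2 ratio of 0.37 and a summed level of 10.1 FPKM in SIRPα-KO, against 7.5 in WT. Prss34, the most abundant, was at 3.82 FPKM in SIRPα-KO, against 4.14 in WT, whereas Mcpt8 was at 2.95 FPKM in SIRPα-KO, against 2.05 in WT, and Cpa3 at 2.30 FPKM in SIRPα-KO, against 0.86 in WT. Stromal and endothelial markers had 8 of 8 kept, 0 called, 4 positive and 4 negative ratios and a median of -0.02, with Kdr, the most abundant, at 19.7 FPKM in SIRPα-KO, against 12.3 in WT. Cell type markers that were neither called nor the most abundant of their list were named after their values were seen. The part of neutrophils, dendritic cells or other cells in the values of Tnfrsf1b, Tnfrsf8 and Tnfsf8 was not tested.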

How the data were processed

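RNA-seq libraries were made with BGI protocols from total RNA, 1 from SIRPα-KO and 1 from WT macrophages, per the labels' protocols. The authors deposited 1 table per library with a value for each of 16263 genes, taken here as FPKM. The unit was inferred: low values of genes with 1 transcript came within 0.15 of whole reads in 69.6% of 899 cases in SIRPα-KO and 71.1% of 857 in WT, against 25.8% in SIRPα-KO and 27.8% in WT with lengths shuffled. The depth of each library was the one, among a range searched, that gave the largest share of whole reads. The shuffled lengths were scored at that same depth without a new search, which favours the true lengths. Too few values came out whole for a count test. The genome mm9, R 3.3.3 and DESeq2 are named without a role in the submitters' processing notes. Neither aligner, counter nor strand setting is given in the sources used here.

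Ratios used a pseudocount of 1. With 1 library per genotype no p-value was computed. Members, lists and the rule for named genes (all kept members, called list genes, up to 6 per direction for pathways and 3 for cell types, and the most abundant genes of lists) were chosen with earlier results of these data known. Words of 50 bases and transcript lengths came from GENCODE M21, gene order and promoter windows from RefSeq (GRCm38.p6), with all 41 members matched in the gene table. Python 3.11.15, pandas 2.3.3 and numpy 2.4.6 were used. Alternatives were a pseudocount of 0.1, no filter, a minimum of 5 FPKM, median-of-ratios and trimmed mean scaling, and a 1.5-fold limit.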

Additional observations from a re-analysis of the deposited data

How the results depend on the processing

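Tnfrsf1b and Tnfsf8 were called lower under every alternative run, and Tnfrsf8 under each except the minimum of 5 FPKM, which removed it and left 2 members called. With a pseudocount of 0.1, 5 members were called lower, Tnfsf12 (log2 ratio -1.11) and Tnfrsf26 (-1.52) being added, while 12.5% of all kept genes were called. At 1.5-fold 9 members were called, 1 higher (Tnfrsf14) and 8 lower, 39.1% of those kept beside 21.2% of all kept genes. Tnfrsf8 and Tnfrsf26 are among the lower calls of both alternatives. They passed the filter through the WT library alone, which favours a lower call. At 1.5-fold 12 of the 62 kept pathway genes were called, 9 higher and 3 lower. These are to be read beside the 21.2% of all kept genes, 10.9% higher and 10.2% lower. Of the called genes 4 were in the receptor-proximal complex, 5 in the noncanonical arm and 2 in the death receptor arm. Another 3 were in the list of messenger decay and shedding, and 1 was among deubiquitinases and inhibitors. Birc2, Birc3 and Traf3 are counted in both the receptor-proximal complex and the noncanonical arm. The share of all genes called was 4.8% with no filter, which adds low genes that the pseudocount keeps from a call. Medians ranged from -0.08 to 0.02 for ligands, from -0.35 to -0.03 for receptors and from 0.42 to 0.61 for the noncanonical arm. Both scalings lowered the ratios of abundant genes by 0.07 (log2) and changed no call among members. No paired analysis was possible because each genotype has 1 library. Precision is limited by the lack of replicates, by pooled mice, and by few reads for Tnfrsf8, Tnfrsf13b, Tnfrsf23 and Tnfrsf26.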

Other observations

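Genes around Tnfsf8 on chromosome 4 were read in gene order after its value was seen. Tnc, which encodes the matrix protein tenascin-C and follows Tnfsf8 directly, was also called lower, at 5.02 FPKM in SIRPα-KO and 12.8 FPKM in WT (log2 ratio -1.20). Tlr4, the LPS receptor, lies a few genes further on and was at 16.3 FPKM in SIRPα-KO and 9.02 FPKM in WT (log2 ratio 0.78), short of the call. Trim32, between Tnc and Tlr4, was at 1.09 FPKM in SIRPα-KO and 1.85 FPKM in WT (log2 ratio -0.45), and was not called. On the other side, Tmem268 was at 2.95 FPKM in SIRPα-KO and 4.74 FPKM in WT, and Atp6v1g1 at 96.0 FPKM in SIRPα-KO and 88.9 FPKM in WT. The lower values of Tnfsf8 and Tnc thus stood between genes whose values were not called.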
